A study of Homo sapiens with 17 samples.

Results

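The course of 9 receptor genes was followed in IMR32 cells after induction of the intracellular domain of NOTCH3 (NOTCH3IC). IMR32 is an established line from a neuroblastoma, a tumour of the sympathetic lineage, and carries extra copies of MYCN. The genes are the receptor tyrosine kinases ALK, RET, NTRK2, NTRK3, KIT and MET and the RET coreceptors GFRA1, GFRA2 and GFRA3. These 9 of 19775 genes named on the array have 32 of its 54675 probe sets, all of those annotated to 1 of the symbols. The genes were chosen by name and not by a cutoff on measured values, but with earlier results of these data known. Per the labels, IMR32 cells of 2 independent clones, c6 and c8, carry an inducible NOTCH3IC construct and received doxycycline in the medium. Clone c6 was sampled at times 0, 4, 8, 12, 24, 48, 72, 96 and 120 and clone c8 at times 0 to 96, with 1 array per clone and time (17 arrays); the labels give no unit of time. No culture was kept without doxycycline after time 0, so NOTCH3IC, doxycycline and time in culture cannot be told apart. Here start means time 0, early means times 4, 8 and 12, and late means times 48, 72 and 96.

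A receptor tyrosine kinase spans the membrane, is paired by its ligand and then phosphorylates itself and adaptor proteins, which feed the RAS-MAPK and PI3K chains. In the sympathetic lineage from which neuroblastoma arises, the TRK receptors take up neurotrophin signals for survival and differentiation, and RET does so for ligands presented by a GFRA coreceptor anchored at the cell surface. ALK is the kinase most often mutated or amplified in neuroblastoma, KIT is the receptor of stem cell factor and MET that of hepatocyte growth factor.

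The promoters of NTRK3, NTRK2 and ALK are shown, to give the sequence at their annotated starts. These genes were picked with their values known and not by a ranking of the receptors. For each gene the most upstream window is printed, and any other only where it holds the core marked in capitals. Each is a RefSeq window on GRCh38.p14, written 5′ to 3′ on the gene's strand, with 250 bases before and 50 bases from the start. In all 16 windows of 8 genes were searched, and GFRA2 was not included. Capitals mark GTGGGAA, the core recognised by RBPJ, the DNA-binding partner of the NOTCH intracellular domains, on either strand.
NTRK3, chr15:88256690-88256989, minus strand: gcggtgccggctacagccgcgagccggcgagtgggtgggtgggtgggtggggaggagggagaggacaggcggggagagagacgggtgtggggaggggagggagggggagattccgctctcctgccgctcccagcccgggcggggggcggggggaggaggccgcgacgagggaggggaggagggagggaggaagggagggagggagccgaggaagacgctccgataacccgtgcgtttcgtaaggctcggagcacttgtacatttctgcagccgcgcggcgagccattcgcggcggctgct
NTRK2, the most upstream of 4 starts, chr9:84669056-84669355, plus strand: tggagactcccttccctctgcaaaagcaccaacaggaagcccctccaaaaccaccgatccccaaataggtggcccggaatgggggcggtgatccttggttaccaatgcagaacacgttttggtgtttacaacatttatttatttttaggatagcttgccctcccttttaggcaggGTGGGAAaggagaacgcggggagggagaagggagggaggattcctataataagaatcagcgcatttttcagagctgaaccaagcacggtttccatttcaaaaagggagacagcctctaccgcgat
NTRK2, the most downstream start, chr9:84701355-84701654, plus strand: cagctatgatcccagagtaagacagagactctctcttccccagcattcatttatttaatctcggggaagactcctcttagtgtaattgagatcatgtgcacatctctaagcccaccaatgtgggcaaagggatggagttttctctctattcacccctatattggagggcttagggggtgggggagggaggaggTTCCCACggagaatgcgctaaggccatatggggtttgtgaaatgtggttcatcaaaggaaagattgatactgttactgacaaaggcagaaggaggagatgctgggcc
ALK, the more upstream of 2 starts, chr2:29921537-29921836, minus strand: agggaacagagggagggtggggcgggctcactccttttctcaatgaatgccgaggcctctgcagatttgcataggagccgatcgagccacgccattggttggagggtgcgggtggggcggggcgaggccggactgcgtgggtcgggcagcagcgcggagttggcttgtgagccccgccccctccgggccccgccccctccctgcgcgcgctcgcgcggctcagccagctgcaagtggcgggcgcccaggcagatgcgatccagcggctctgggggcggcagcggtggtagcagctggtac
The GTGGGAA core occurred in both printed NTRK2 windows, with its first base at -75 and -57 from the start. The downstream NTRK2 window was printed because it holds the core. None of the other 14 windows of the receptor genes held it, among them the unprinted windows of NTRK2. Of 35116 promoter windows of the same length in the table, 6.25% held it. CACGNG, the site class bound by HES and HEY repressors (both strands), occurred in 30.5% of all windows. Of the windows printed above, that of NTRK3 held 1 copy and those of ALK and NTRK2 none. Among those not printed, it occurred in that of ALK, 1 of NTRK2, both of RET and those of GFRA3 and MET. All GFRA1 windows but the most downstream also held it. It was absent from the KIT window and the other unprinted NTRK2 window. These are letter matches, and the array does not measure binding.

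**Figure D1:**
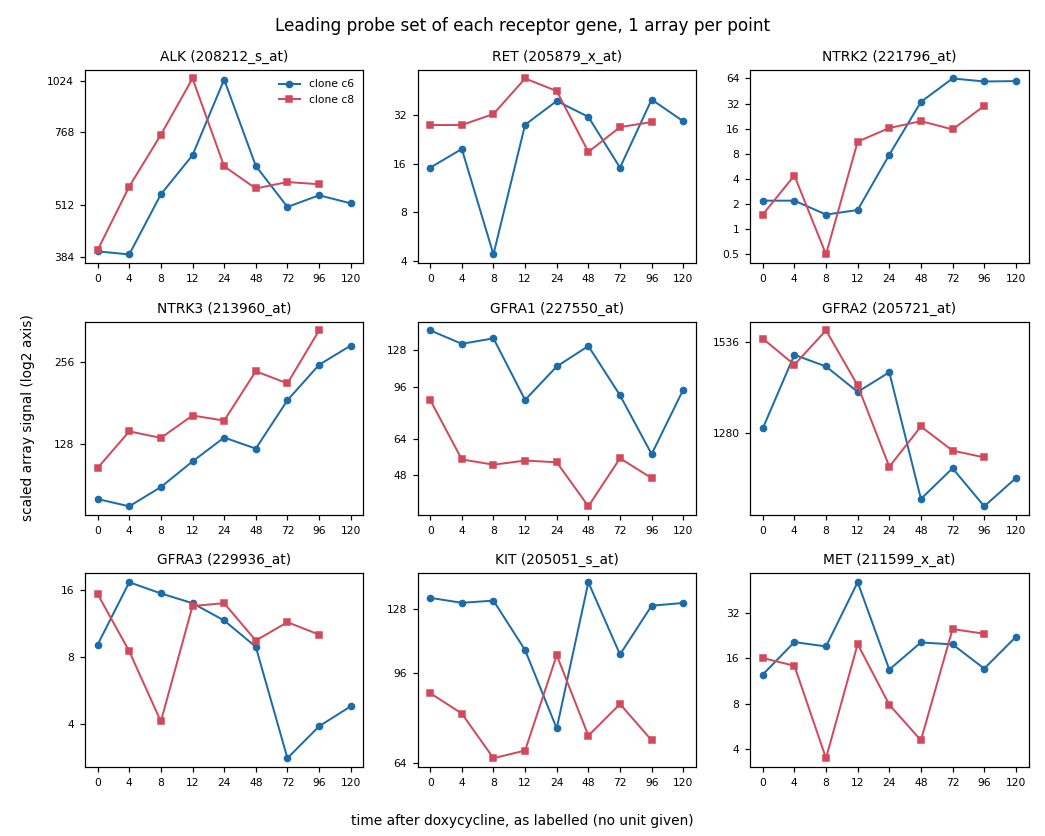
Scaled array signal (log2 axis) of the leading, brightest probe set of each receptor gene against time as labelled, with 1 array per point, circles for clone c6 and squares for clone c8. ALK rises to 1031 at time 24 in clone c6 and 1037 at time 12 in clone c8 and comes down, NTRK3 ends at its highest in clones c6 and c8, NTRK2 peaks at time 72 in the former and at time 96 in the latter, and GFRA1 is lower in clone c8 at every shared time.

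The values are array signals scaled by the authors, and each array's median signal lay between 14.5 and 19.2. Array profiles correlated with each other at r = 0.95 to 0.99 across tested probe sets. Clones c6 and c8 had NOTCH3 signals of 94.6 and 218 at time 0 and of 393 to 467 and 703 to 836 on their late arrays. Of 10 neuroblast markers, 9 could be tested, with MYCN at 4075 to 5493 and GATA3 at 3045 to 4290 over all arrays, and the tyrosine hydroxylase gene TH at 8.50 or less. Late against start 2 of the 9 fell and 1 rose (limma): the log2 difference was -2.19 for the dopamine beta-hydroxylase gene DBH (adjusted p = 0.000459), -0.77 for PHOX2A (adjusted p = 0.00140) and 1.23 for STMN2 (adjusted p = 0.00107). Markers of Schwann cells and glia (1 of 5 above the filter), endothelium (1 of 4), leukocytes and mast cells (1 of 7) and epithelium (2 of 5) were mostly dim. The highest signals among them were 43.2 for KRT8 of the epithelium and 39.8 for PECAM1 of the endothelium, and none was called late against start. The summed signal of 7 fibroblast markers was 990 to 1346 at start, 815 to 1845 early and 4820 to 8644 late. Most of the late sum was COL3A1, which went from 8.40 and 10.2 at time 0 in clones c6 and c8 to late means of 5075 and 4617, while PDGFRA, singled out after its values were seen, went from 879.7 and 708 to 666 and 457 (log2 -0.51, adjusted p = 0.0516). Array signals cannot tell fewer cells with a transcript from less of it per cell.

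Log2 differences are of log2(signal + 16), with ± 1 standard error from limma, and probe sets were tested where their mean over all arrays reached the 40th percentile. Of the 32 receptor probe sets 25 could be tested, with the leading probe set of all 9 genes among them. Late against start, 10 of the 25 rose and 0 fell (limma, adjusted p under 0.05), 8 of them of NTRK3 and 2 of NTRK2, where 4.75% of all 32768 probe sets passed, 3.65% higher and 1.10% lower. The median difference of the 25 was 0.47, against -0.00097 over all probe sets tested, with 17 positive and 8 negative. NTRK3 alone supplied 9 of the 25, at 0.65 to 1.10, and so weighs heavily on this median. Early against start 0 of 25 passed, with 6 at an unadjusted p under 0.05, where 1.33% of all probe sets passed, 0.888% higher and 0.443% lower. Late against early, which does not use time 0, 10 of 25 rose and 1 fell, where 3.36% of all probe sets passed, 2.54% higher and 0.821% lower. Leaving out 1 array took these 11 calls to between 6 and 12: to 6 without time 96 of clone c6 or time 8 or 96 of clone c8, and to 7 without time 8 or 72 of clone c6 or time 4 of clone c8, where 775 to 979 of all probe sets passed against 1101. Fitted singly, clone c6 gave 3 receptor calls among 958 of all probe sets and clone c8 gave 0 among 309, with fewer arrays. Several of these probe sets belong to 1 gene, so these counts are not of independent genes. The count of 10 late calls fell to 5 when time 0 of clone c6 was left out and to 4 when that of clone c8 was, as the count over all probe sets fell from 1557 to 636 and 600.

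**Figure D2:**
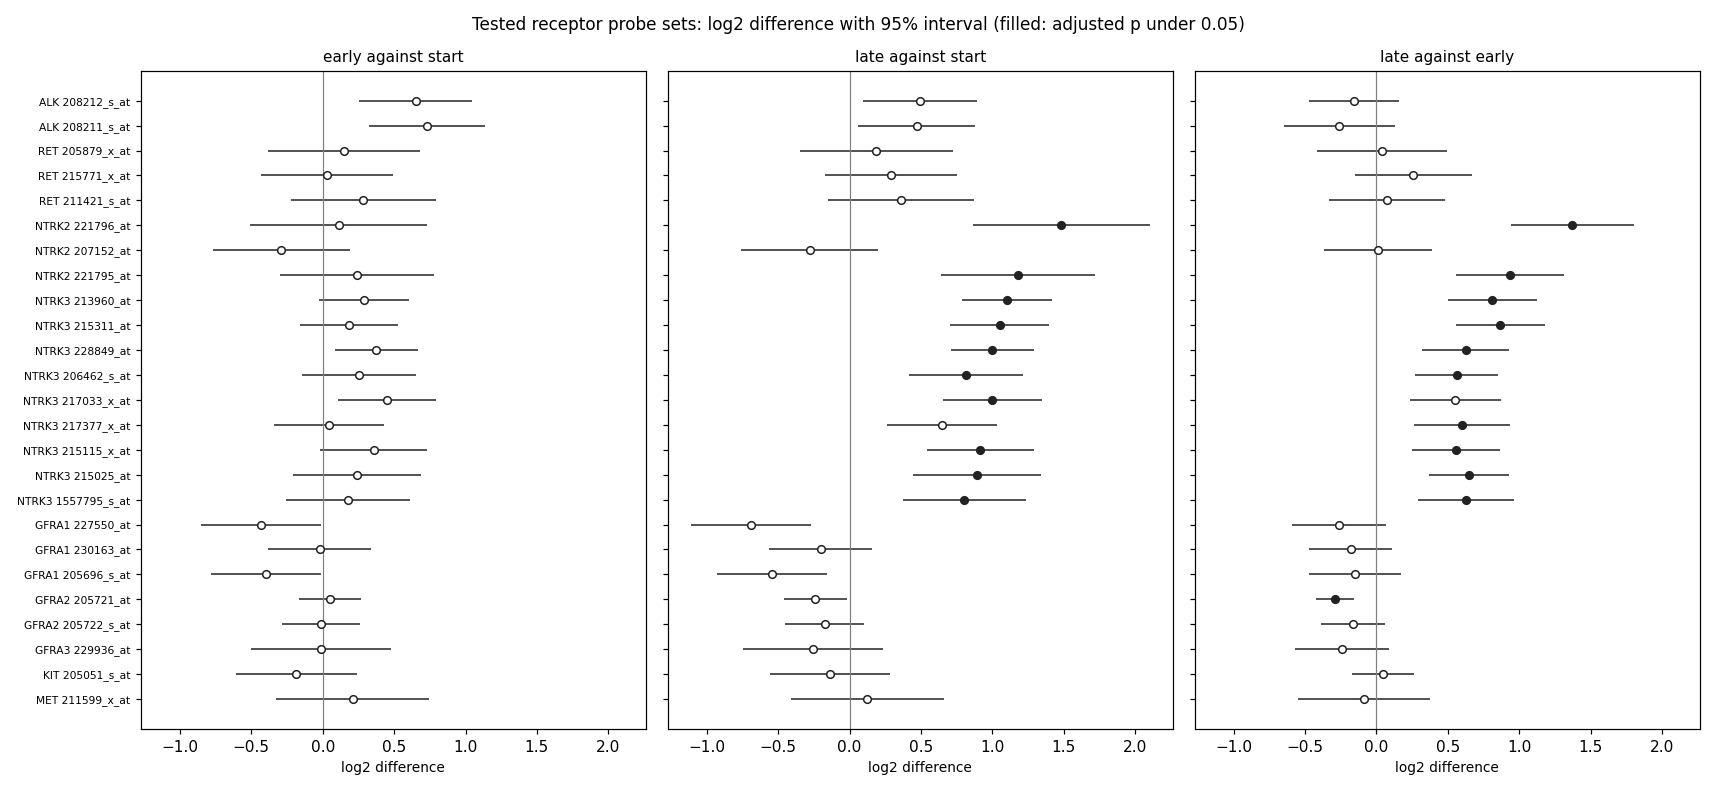
Log2 difference (x axis) of each of the 25 tested receptor probe sets early against start, late against start and late against early, with 95% intervals of the limma fit; filled points passed at an adjusted p under 0.05. No point is filled early, while 8 of 9 NTRK3 and 2 of 3 NTRK2 probe sets are filled late against start.

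NTRK3, the receptor of neurotrophin-3, rose after induction and was highest on the last array of each clone. Its leading probe set 213960_at had a signal of 80.5, 75.7, 89.1, 111 and 135.5 in clone c6 at times 0, 4, 8, 12 and 24. It then read 123, 186, 251 and 295 at times 48, 72, 96 and 120. In clone c8 the signal was 105, 143, 135, 163 and 156 up to time 24 and 237.5, 214 and 336 at times 48, 72 and 96. The late arrays lay above all early arrays of their own clone, and 5 of 6 early arrays above time 0.

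Late against start the NTRK3 signal plus the pseudocount was 2.15-fold higher (log2 1.10 ± 0.15, limma adjusted p = 0.000159, 6 of 6 late arrays higher). The late mean was 187 ± 63.8 in clone c6, which began at 80.5, and 263 ± 64.5 in clone c8, which began at 105 (SD, n = 3 arrays each). This call held under all 27 alternative settings, with adjusted p between 0.000137 and 0.0348. Early against start the difference was 0.29 ± 0.15 (adjusted p = 0.470). Taken time by time from the same fit, the difference from time 0 was 0.48 ± 0.18 at time 12, 0.80 ± 0.18 at time 48, 1.51 ± 0.18 at time 96 and 1.76 ± 0.23 at time 120, the last from 1 array.

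All 9 NTRK3 probe sets were above the filter and all had positive late differences, from 0.65 to 1.10 on the log2 scale, with 8 past the threshold. The ninth, 217377_x_at, was at 0.65 ± 0.18 (adjusted p = 0.0538). Late against early 8 of 9 rose, the 9 differences being 0.55 to 0.87, and the leading probe set by 0.81 ± 0.15 (adjusted p = 0.00315). Across the 17 arrays the 36 pairs of NTRK3 probe sets correlated at r = 0.69 to 0.96, with a median of 0.85. These probe sets share arrays and a gene, and the sources used here do not say which transcripts each reads. Probe sets whose names end in _x_at or _s_at can read related transcripts, and the leading probe set has neither ending. Late against early did not pass in single clones for this probe set (0.87, adjusted p = 0.0528 in clone c6, and 0.75, adjusted p = 0.0794 in clone c8).

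**Figure D3:**
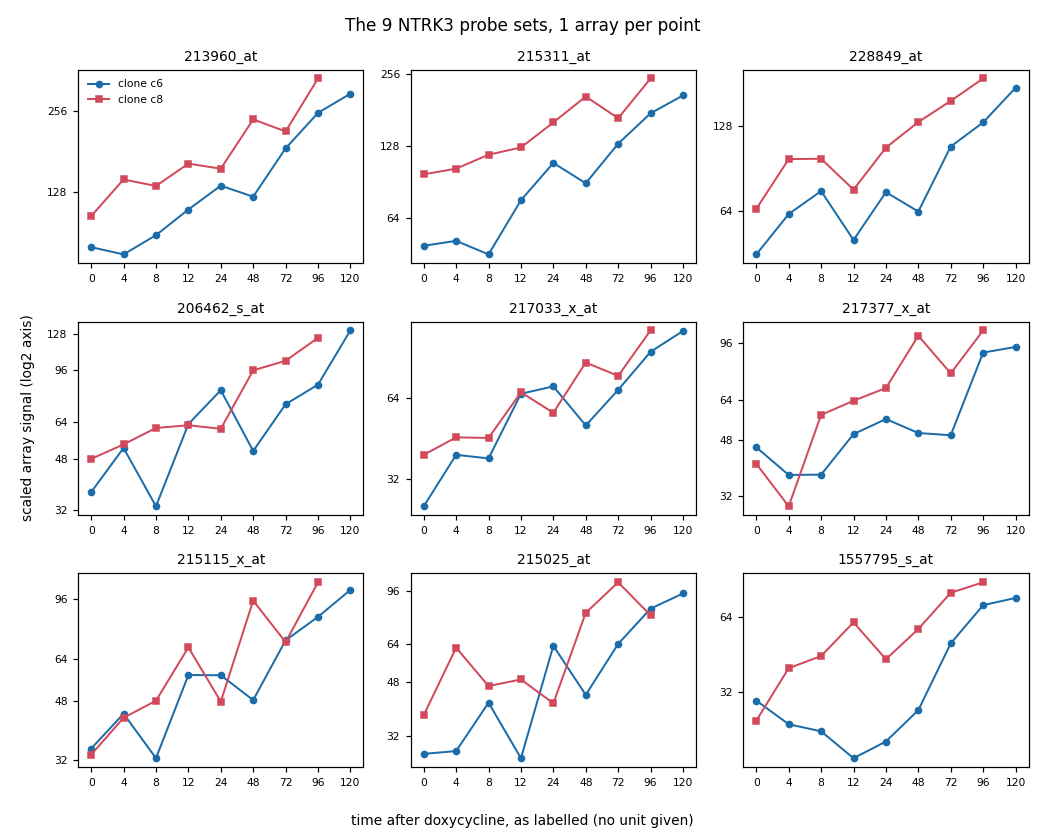
Scaled array signal (log2 axis) of the 9 NTRK3 probe sets against time as labelled, 1 array per point, circles for clone c6 and squares for clone c8. Each probe set ends higher than it starts in both clones, and their late against start differences run from 0.65 to 1.10 on the log2 scale.

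NTRK2, which encodes the receptor of the neurotrophin BDNF, rose from a very low signal on the neighbouring pair of probe sets 221796_at and 221795_at only. In clone c6 the signal of 221796_at was 1.5 to 2.2 at times 0 to 12, 7.80 at time 24, 33.5 at time 48, 63.9 at time 72, 58.8 at time 96 and 59.4 at time 120. In clone c8 it was 1.5, 4.4, 0.50 and 11.2 at times 0, 4, 8 and 12, and 16.3, 19.7, 15.7 and 30.0 at times 24, 48, 72 and 96. In both clones all late signals exceeded all early ones. The start was far below the array medians and the late signal of clone c6 above them.

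Late against start the difference was 1.48 ± 0.29 for 221796_at (adjusted p = 0.00508) and 1.18 ± 0.25 for 221795_at (adjusted p = 0.0101), each with 6 of 6 late arrays higher. The size depends on the pseudocount, since both began below a signal of 3. With pseudocounts of 1 and 64 the difference of 221796_at was 3.57 and 0.59. Its late call was lost when time 0 of clone c6 was left out (adjusted p = 0.124) or of clone c8 (adjusted p = 0.0760), with differences of 1.41 and 1.55. Late against early, without time 0, it rose by 1.37 ± 0.20 (adjusted p = 0.000520), and the companion by 0.94 ± 0.18 (adjusted p = 0.00463). In clone c8 alone this difference of 221796_at did not pass (0.84, adjusted p = 0.160).

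The third tested NTRK2 probe set, 207152_at, had a signal of 3.20 to 26.9 over all arrays and a late difference of -0.28 ± 0.23 (adjusted p = 0.634). The remaining 3 NTRK2 probe sets never exceeded 10.7 and were not tested. The rising pair correlated at r = 0.92 with each other over the 17 arrays, and 207152_at correlated with them at -0.03 and 0.09. The sources used here do not say which NTRK2 transcripts each probe set reads. The early-to-late rise of 221796_at was smaller in clone c8 by 1.07 ± 0.32 on the log2 scale (95% interval -1.75 to -0.38), which did not pass over all probe sets (adjusted p = 0.584). The fibroblast marker sum given above was also highest on the late arrays, with 4 of the 7 markers past the threshold and 0 lower, and its part in the rise of NTRK2 and NTRK3 was not tested.

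ALK had its highest signal in mid-course in both clones. On its leading probe set 208212_s_at the signal of clone c6 was 396, 389.6, 544 and 676 at times 0, 4, 8 and 12, reached 1031 at time 24, and was 637, 507, 541 and 518 at times 48 to 120. In clone c8 it was 399, 568 and 758 at times 0, 4 and 8, reached 1037 at time 12, and was 636, 562, 583 and 576 at times 24 to 96. The clones started within 3 signal units of each other, and both peaked at 2.60 times their start. All 6 late arrays stayed above their own time 0 and below the peak.

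The other ALK probe set, 208211_s_at, peaked at the same times, at 341 in clone c6 from 88.7 and at 250.3 in clone c8 from 89.3. It varied over time by limma's F-test (adjusted p = 0.0171), where 4.51% of all probe sets did, while the leading probe set did not pass (adjusted p = 0.104). From the same fit the leading probe set stood 0.24 ± 0.23 above time 0 at time 4, 0.67 ± 0.23 at time 8, 1.05 ± 0.23 at time 12, 0.998 ± 0.23 at time 24 and 0.57 ± 0.23 at time 48. Early against start it was at 0.65 ± 0.19 (adjusted p = 0.122) and late at 0.49 ± 0.19 (adjusted p = 0.188), and neither passed. Without the time-24 array of either clone the early difference passed, but its size stayed at 0.65, as time 24 is not among the early times. Without that of clone c8 the change over time passed as well. Either fit leaves 1 array at time 24.

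**Figure D4:**
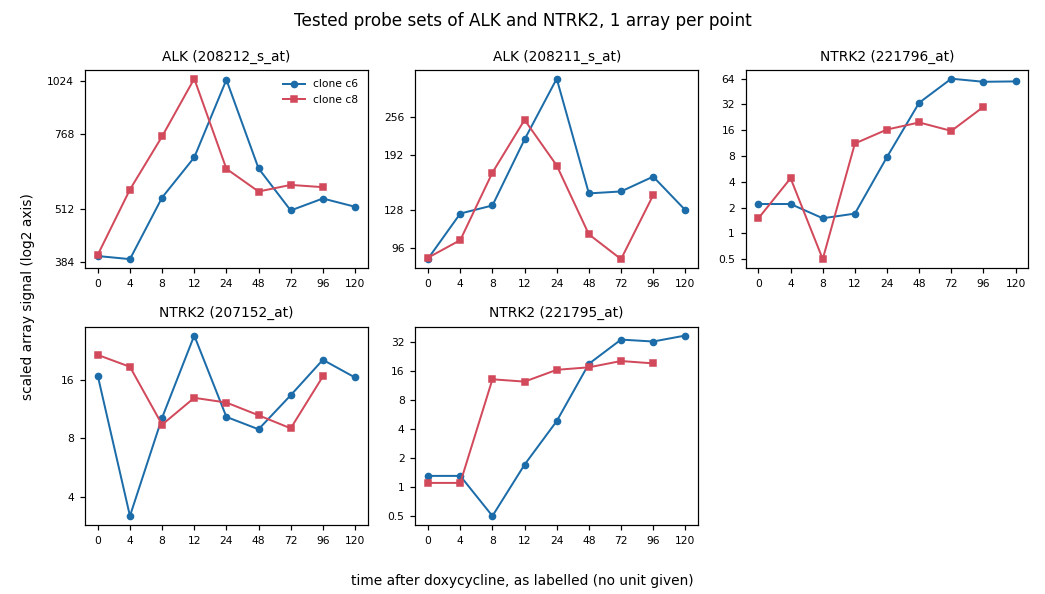
Scaled array signal (log2 axis) of the tested ALK and NTRK2 probe sets against time as labelled, 1 array per point, circles for clone c6 and squares for clone c8. Both ALK probe sets peak at time 24 in clone c6 and time 12 in clone c8, and 2 of the 3 NTRK2 probe sets climb from signals below 3.

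RET, the kinase that signals for the GFRA coreceptors, stayed dim. Its leading probe set 205879_x_at ran from 4.40 to 39.8 in clone c6 and from 18.9 to 53.7 in clone c8, its highest signal in clone c8 being at time 12. The late difference was 0.19 ± 0.25 (95% interval -0.34 to 0.72), and none of the 3 RET probe sets passed early, late or over time. All 3 RET probe sets were highest at time 12 in clone c8. In clone c6 the leading one (39.8) and 215771_x_at (30.5) were highest at time 96, and 211421_s_at (28.8) at time 24. RET and ALK leading probe sets correlated at r = 0.58 over the 17 arrays, which share clone and time.

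GFRA1, a coreceptor of RET, had lower signals after induction in both clones, but the difference did not pass. Its leading probe set 227550_at started from 149 in clone c6 and from 86.6 in clone c8. The late arrays of clone c6 read 132, 89.8 and 56.7 and those of clone c8 37.7, 54.9 and 47.0, all 6 below their own start. The late difference was -0.69 ± 0.20 (adjusted p = 0.0583). It passed with quantile normalization (-0.74, adjusted p = 0.0451), median centring (-0.77, 0.0495), 1 probe set per gene (-0.69, 0.0487) and without time 48 of clone c6 (-0.81, 0.0202) or time 96 of clone c8 (-0.81, 0.0202). The other GFRA1 probe sets were at -0.55 ± 0.18 and -0.20 ± 0.17.

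GFRA2, the coreceptor that prefers neurturin, was lower late than early by 0.29 on the log2 scale on its leading probe set 205721_at (-0.29 ± 0.06, adjusted p = 0.0127), where 0.821% of all probe sets fell. The late arrays read 1107 to 1194 in clone c6 and 1220 to 1298 in clone c8, and the early arrays 1390 to 1497 and 1409 to 1572, without overlap. The call was lost without time 8 of clone c8 (adjusted p = 0.0527) and without the intensity trend (0.0711), and in clone c6 alone (-0.34, adjusted p = 0.0935) and clone c8 alone (-0.24, adjusted p = 0.476). Against start the late difference was -0.24 ± 0.10 (adjusted p = 0.265), and the other GFRA2 probe set, at -0.16 ± 0.11 late against early, did not pass. GFRA3, the coreceptor that prefers artemin, never exceeded a signal of 17.4.

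KIT and MET showed no call in time. The single KIT probe set read 74.7 to 144.5 in clone c6 and 65.3 to 104 in clone c8, with a late difference of -0.14 ± 0.20 (95% interval -0.56 to 0.28). The only tested MET probe set, 211599_x_at, read 3.50 to 51.0, and the other 3 never exceeded 15.3. Its late difference was 0.12 ± 0.25 (95% interval -0.41 to 0.66).

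Several receptors had different levels in the 2 clones at matched times. Over the 8 shared times 9 of 25 receptor probe sets differed, 5 higher and 4 lower in clone c8, where 18.9% of all probe sets differed, 9.21% higher and 9.68% lower. GFRA1 was lower in clone c8 at 8 of 8 times on all 3 probe sets: the leading one averaged 113 ± 32.2 in clone c6 and 55.0 ± 14.0 in clone c8 (SD over 8 times), a log2 difference of -0.83 ± 0.12 (adjusted p = 0.000230). KIT was lower in clone c8 at 7 of 8 times, at 78.9 ± 12.8 against 120 ± 23.0 (SD over 8 times; log2 -0.51 ± 0.12, adjusted p = 0.00815).

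NTRK3 was higher in clone c8 at 8 of 8 times on its leading probe set, at 186 ± 74.0 against 131 ± 60.04 (SD over 8 times; log2 0.47 ± 0.09, adjusted p = 0.00201), and 4 of its 9 probe sets passed. One RET probe set, 211421_s_at, was also higher in clone c8 (0.65 ± 0.15, adjusted p = 0.00557), at 26.2 ± 10.5 against 11.4 ± 8.97 (SD over 8 times), while the other RET probe sets did not pass. ALK, NTRK2, GFRA2, GFRA3 and MET had no probe set past the threshold. In the late minus early response, no receptor probe set passed between the clones, with 3 of 25 at an unadjusted p under 0.05 (limma). These were 221796_at (-1.07 ± 0.32) and 221795_at (-0.82 ± 0.31) of NTRK2 and 229936_at of GFRA3 (0.70 ± 0.27). Over all 32768 probe sets limma called 0, with 2570 at an unadjusted p under 0.05 and a smallest adjusted p of 0.246. The lack of a call does not show that the responses were equal.

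**Figure D5:**
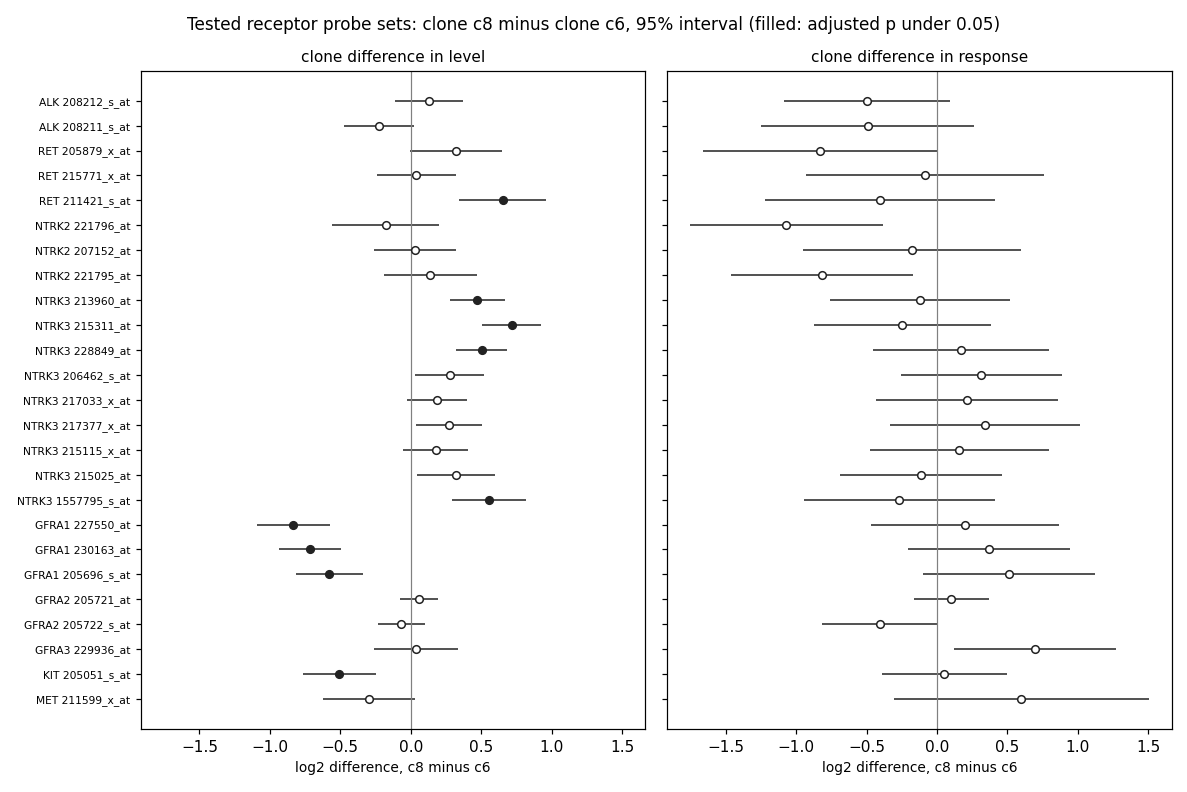
Clone c8 minus clone c6 on the log2 scale (x axis) for the 25 tested receptor probe sets, in level over the 8 shared times and in the late minus early response, with 95% intervals of the limma fit; filled points passed at an adjusted p under 0.05. GFRA1 and KIT are filled below 0 in level and 4 NTRK3 probe sets above 0, and no point is filled for the response.

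The genes of most similar course were found by Pearson correlation over the 17 arrays with the leading probe sets of 13682 other genes, as a description. ALK was closest to ARL6IP5 (r = 0.93), MAPK10 (0.93) and TMCC3 (0.93). NTRK3 was closest to MYLK (0.93), COL4A1 (0.93) and FERMT2 (0.92), and NTRK2 to RGS5 (0.95), OLFML2A (0.95) and CDH6 (0.95). GFRA1 was closest to KIF1A (0.93), ITPRID2 (0.92) and SSTR2 (0.92), GFRA2 to TEX19 (0.86), ROR2 (0.86) and FBXO28 (0.85), and KIT to COPS7B (0.90), KPNB1 (0.88) and OSBPL6 (0.87). For the dim RET (EGFR, CTNNA2 and CREBRF, 0.83 each), GFRA3 (HSPA6 at 0.87) and MET (FUT1 at 0.76) the best correlations were mostly lower. Among the receptors NTRK2 and NTRK3 correlated at 0.76 and GFRA1 and KIT at 0.71.

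Of the receptors' ligands, 9 of the 10 with a named probe set could be tested, and 1 rose late against start, where 3.65% of all probe sets rose and 1.10% fell. This was PTN, pleiotrophin, at 0.59 ± 0.14 (adjusted p = 0.0165), from 184 and 202 at start in clones c6 and c8 to late means of 318 and 285. The related midkine MDK was at -0.03, the stem cell factor gene KITLG at -0.04, BDNF at -0.45 (adjusted p = 0.114), neurturin NRTN at 0.76 (adjusted p = 0.0982) and the ALK ligand ALKAL2 at -0.21. The ligands without a call were named after their values were seen. The median of the 9 was -0.03.

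Of coreceptors and related receptors, 3 of 6 tested rose late against start and 0 fell, against the same 3.65% and 1.10% of all probe sets. SORCS2, a sortilin-related receptor of neurotrophin precursors, rose by 1.76 ± 0.28 (adjusted p = 0.000678), from 5.4 and 25.7 at start to late means of 77.4 and 96.1. LINGO1, a partner of the low-affinity neurotrophin receptor, rose by 1.70 ± 0.28 (adjusted p = 0.000923). NGFR, that low-affinity receptor, rose by 1.09 ± 0.29 (adjusted p = 0.0372), from 1.60 in both clones to late means of 26.5 and 17.3. Its early difference from start was 0.99 (limma adjusted p = 0.124). Late against early NGFR was at 0.09 (limma adjusted p = 0.928), and neither passed. With so low a start, the size of its rise depends on the pseudocount. SORCS1 was lower late than early (-0.38 ± 0.09, adjusted p = 0.0296), and the neural adhesion molecule NCAM1 did not pass.

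Downstream of the receptors, 5 of 28 adaptors and negative regulators rose late against start and 0 fell. Over all probe sets 3.65% rose and 1.10% fell, for this and the next 2 lists. The adaptors and regulators that rose were DOK6 (1.59 ± 0.27), DOK4 (0.91 ± 0.18), the feedback inhibitor LRIG1 (0.79 ± 0.16), GAB1 (0.71 ± 0.15) and SHC3 (0.62 ± 0.16), of which DOK4, DOK6 and SHC3 encode adaptors of RET or TRK receptors. Of 16 kinases and other members of the MAPK and PI3K chain only RPS6KA2 rose (0.96 ± 0.20, adjusted p = 0.00714), and 0 fell. Of 20 pathway targets and feedback genes 5 rose and 1 fell: the feedback inhibitors SPRY2 (1.91 ± 0.28), SPRY4 (1.02 ± 0.26) and SPRED2 (0.66 ± 0.15), with PHLDA1 (1.08 ± 0.29), were among the higher and the immediate early gene EGR1 was lower (-1.55 ± 0.18). The median late differences of these 3 lists were 0.08, -0.06 and 0.39.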

How the data were processed

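RNA of 17 samples was hybridised to 1-colour arrays of 54675 probe sets. The deposited values are intensities on a linear scale; MAS5 and GCOS are the tools listed, per the submitters' processing notes, and from the values the authors scaled each array to the same 2% trimmed mean of 100.01. Detection calls and scanner files were not used, and no source used here names a genome build for the annotation. The number of arrays limits the precision.

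After 62 control probe sets were left out, intensities were taken as log2(value + 16), and 32768 of 54613 probe sets were tested, those with a mean at or above the 40th percentile (4.68, a signal of about 9.56). Of all probe sets 41097 had 1 symbol and 1801 several; 41043 were found in a RefSeq gene table of GRCh38.p14 and none changed. Tests used limma 3.58.1 in R 4.3.3 (lmFit, eBayes with trend) with Benjamini-Hochberg adjustment over all probe sets tested. The fit over 17 arrays had a term for each time and the clone (7 residual degrees of freedom), late against early used 12 arrays (9), the response interaction 12 (8) and the clone level 16 (7). Within a phase, neighbouring times serve as replicates. Nothing in the labels tells whether times were separate cultures, so the p-values cover only the spread among arrays, which may be technical. The clone pairs the samples by the labels: clone differences at the shared times correlated at 0.15 to 0.44 across probe sets, so the clone stayed in the fit as a block. No pair of arrays had over 1.42% of values equal.

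Each gene's brightest probe set leads. The named genes were all members, the 3 genes most correlated with each, and up to 5 called genes a list. Members and lists were chosen with earlier results of these data known. The fits were tested on simulated data. The alternatives changed the pseudocount (1 or 64), the scaling (quantile or median), the filter (none or stricter), the probe sets (1 per gene) and the fit (no trend, no clone term, phase means, single clones, each array left out).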

Additional observations from a re-analysis of the deposited data

How the results depend on the processing

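Of the leading probe sets' calls, NTRK3 late against start kept its call under all 27 alternatives, and the settings that changed the calls of NTRK2, ALK, GFRA1 and GFRA2, and of NTRK3 late against early, are given with those genes. Without the replicate block (no clone term), the probe sets called numbered 823 late against start, 95 early and 587 over time, against 1557, 436 and 1478, and the receptor probe sets called numbered 5, 0 and 2, with 4 late against early; NTRK3 over time then did not pass (adjusted p = 0.118). Without a filter 227 passed early and 920 over time, without the intensity trend 204 and 925, and from phase means 140 early. With 1 probe set per gene, which tests fewer features, 949 passed late against start, 275 early, 905 over time, 708 late against early (1101 in the fit reported) and 2963 in clone level (6191). Clone c8 alone, with fewer arrays, gave 309 late against early. Median centring split the late against start calls into 908 higher and 474 lower, against 1196 and 361.

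Leaving out 1 array gave 600 to 1756 late against start, 67 to 607 early, 949 to 1867 over time and 775 to 1906 late against early, the last without time 12 of clone c8. Leaving out time 12 of both clones, chosen after seeing the data, also gave 1906.

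Sign changes were all among differences that did not pass. Late against early, ALK was at 0.092 in clone c6 alone, RET, GFRA3 and MET at -0.38, 0.11 and 0.22 in clone c8 alone, RET at -8.8e-05 with a pseudocount of 64, and ALK, KIT and MET at 0.041, -0.011 and 0.16 without time 12. GFRA2 early was at -0.0082 with median centring. With 1 array left out, the early difference ran from -0.061 to 0.16 for GFRA2, -0.18 to 0.15 for GFRA3, -0.059 to 0.48 for MET, -0.039 to 0.26 for NTRK2 and -0.025 to 0.33 for RET. MET ran from -0.14 to 0.39 late against start and -0.23 to 0.082 late against early, and RET from -0.15 to 0.17 late against early. The clone difference ran from -0.036 to 0.14 in GFRA3 level, and in response from -0.062 to 0.45 for GFRA1, -0.063 to 0.15 for KIT and -0.37 to 0.10 for NTRK3. The cause of these changes was not tested. NTRK2 before induction, GFRA3 and MET lay near or below the array medians, where the pseudocount compresses differences. The leading RET probe set had a median signal of 27.8, above the array medians. Sign changes also occurred for the brighter ALK, NTRK3, GFRA1, GFRA2 and KIT.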

Other observations

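Other receptor tyrosine kinases were listed for comparison, and 35 of the 47 with a named probe set could be tested. Late against start 4 rose and 2 fell, with a median of 0.13, where 3.65% of all probe sets rose and 1.10% fell. EPHA3, an ephrin receptor, rose by 2.77 ± 0.36 on the log2 scale (limma adjusted p = 0.000105), from signals of 0.40 and 0.80 in clones c6 and c8 to late means of 70.2 and 136. With so low a start, the size of this rise depends on the pseudocount. ROR1, a WNT5A receptor, rose by 0.97 ± 0.18 (adjusted p = 0.00250), and the ephrin receptor EPHB1 by 0.75 ± 0.20 (adjusted p = 0.0365). DDR2, a collagen receptor, rose by 0.71 ± 0.13 late (adjusted p = 0.00288) and had also passed early (0.69, adjusted p = 0.0143). FGFR2, a fibroblast growth factor receptor, fell by 1.07 (adjusted p = 0.00204).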
